A study of Mus musculus with 15 samples.

Results

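The 10 genes described here were 4 growth factor receptors, Egfr, Fgfr1, Fgfr2 and Fgfr3, and 6 genes transcribed downstream of them that restrain or carry the signal, Spry1, Spry2, Spry4, Dusp6, Etv4 and Etv5. They were chosen by name, and each symbol matched 1 of the 53801 genes in the count table. RNA was sequenced from primary adult neural stem cells of the subventricular zone of mice of the C57BL6/J-129sv background, aged 2 months, in 15 libraries in 3 groups of 5. Every mouse carried the Rosa26-CreERT2 transgene, a Cre recombinase that is expressed from the Rosa26 locus and becomes active when 4-hydroxytamoxifen (4-OHT) is added. The untreated group was Trrap Fl/+ without 4-OHT, the control group was Trrap Fl/+ with 4-OHT from the same 5 mice (19, 24, 26, 35 and 36), and the deleted group was Trrap Fl/Fl with 4-OHT from 5 other mice (27, 28, 29, 37 and 39). The labels give 5 days of 4-OHT, whereas the study's methods give a shorter exposure followed by fresh medium. In the control group 4-OHT acts on 1 floxed Trrap allele, so these cells keep a wild-type copy. Trrap is a scaffold subunit of histone acetyltransferase complexes.

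EGF and FGF bind receptor tyrosine kinases at the cell surface, and the activated receptors signal through RAS, RAF, MEK and ERK. ERK activity raises transcription of its own inhibitors, the Sprouty proteins and the ERK phosphatase Dusp6, and of the ETS factors Etv4 and Etv5, so these transcripts are widely used as a reading of how active the pathway is. Adult neural stem cells are expanded in medium with both factors, and per the study's methods these cultures received EGF and basic FGF, so every library comes from cells with ligand present.

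Library depth ranged from 25720034 to 32187097 counts, and reads of mitochondrial genes made up 1.72% to 3.56% in untreated, 0.849% to 1.74% in control and 1.36% to 2.19% in deleted cells. The lowest count of any of the 10 genes in any library was 1409, for which counting error alone gives a coefficient of variation of 2.66%, so the spread between libraries rather than depth set the precision. Values are CPM, the counts of a gene as a share of the library total after TMM scaling. Trrap itself averaged 188 CPM ± 13.4 (SD, n = 5) in the untreated, 165 ± 24.9 in the control and 105 ± 24.6 in the deleted group, lower in the deleted than in the control group with a log2 fold change of -0.64 (adjusted p = 0.0115, edgeR). The library of Fl/Fl mouse 29, at 144 CPM, lay inside the control range of 141 to 202 CPM. Of the neural stem cell markers all 10 averaged above 1 CPM in every group, with summed levels of 9369 to 13402 CPM untreated, 8986 to 11536 CPM in controls and 7719 to 12161 CPM in deleted cells, whereas all 6 microglial markers stayed below 1 CPM in each group. The library of Fl/Fl mouse 39, labelled female, had Xist at 0.314 CPM and the Y-linked gene Ddx3y at 54.3 CPM, against its sex label. The 4-OHT library of mouse 36, labelled male, had Xist at 75.6 CPM beside Ddx3y at 53.6 CPM, and the untreated library of that mouse had 5.88 and 47.6 CPM, where the untreated libraries of mice 19 and 35, also labelled male, had Xist at 0.285 and 0.151 CPM. The calls of the 10 genes, and those of other named genes that were lost, are therefore also given without Fl/Fl mouse 39 and both libraries of mouse 36, hereafter the libraries in doubt. Mice numbered below 30 (19, 24 and 26 of Fl/+, 27, 28 and 29 of Fl/Fl) and above 30 (35 and 36, 37 and 39) often differed, and this split is partly shared with labelled sex: mice 19, 27, 28, 29, 35 and 36 are labelled male and 24, 26, 37 and 39 female. The labels do not call it a batch.

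Per kb of exon, Spry2 was the most abundant of the 10 transcripts in untreated cells. Its level was 125 CPM per kb ± 17.0 (SD, n = 5), followed by Dusp6 at 77.9 ± 41.3, Etv4 at 69.2 ± 8.11 and Egfr at 68.0 ± 3.41. Below them came Fgfr3 at 62.1, Etv5 at 51.4, Spry1 at 34.9, Fgfr1 at 29.1, Spry4 at 18.2 and Fgfr2 at 5.47 CPM per kb. Every neighbouring pair in this order had overlapping ranges over the 5 untreated libraries, apart from Spry4 and Fgfr2. Egfr was thus about as abundant per length as Fgfr3, and Fgfr2 was the least abundant of the 4 receptors in all 3 groups, with a range of 5.07 to 6.39 CPM per kb in untreated, 4.75 to 6.73 in control and 5.70 to 7.61 in deleted cells that did not meet that of the next gene.

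**Figure D1:**
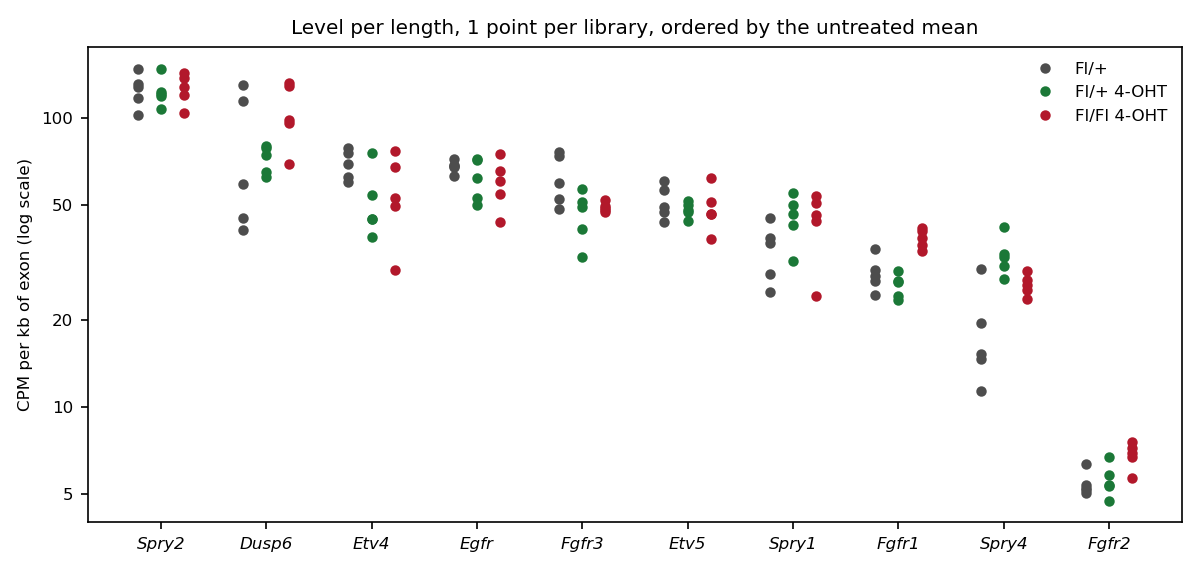
Level of each of the 10 transcripts in CPM per kb of exon on a log axis, with 1 point per library, coloured by group and ordered by the untreated mean. Spry2 sits at the top at 125 CPM per kb and Fgfr2 at the bottom at 5.47, and the points of most neighbours overlap.

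The sequences before the starts of 3 of the genes are shown because the GC box GGGCGG is bound by Sp1, a factor the study examined, and because Dusp6 and Fgfr2 passed the test for Trrap deletion and Egfr did not. RefSeq promoters (GRCm38.p6) matched 7 of the 10 genes, in 9 windows, and Fgfr1, Spry4 and Etv4 were not matched. Each line gives the 250 bases before the start, read 5′ to 3′ on the strand of the gene, with capitals for the GC box on either strand. None of the 3 windows overlaps an annotated exon. The Fgfr2 window precedes the RefSeq start, which lies inside the longer GENCODE locus of the gene and far from the outer end of that locus. The windows are chr10:99262981-99263230 (plus strand), chr7:130266809-130267058 (minus strand) and chr11:16751953-16752202 (plus strand).
Dusp6: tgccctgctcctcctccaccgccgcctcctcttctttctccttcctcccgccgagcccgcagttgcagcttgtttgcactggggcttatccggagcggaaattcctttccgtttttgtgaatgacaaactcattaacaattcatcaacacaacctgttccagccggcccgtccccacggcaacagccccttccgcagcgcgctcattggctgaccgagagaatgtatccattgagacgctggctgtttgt
Fgfr2: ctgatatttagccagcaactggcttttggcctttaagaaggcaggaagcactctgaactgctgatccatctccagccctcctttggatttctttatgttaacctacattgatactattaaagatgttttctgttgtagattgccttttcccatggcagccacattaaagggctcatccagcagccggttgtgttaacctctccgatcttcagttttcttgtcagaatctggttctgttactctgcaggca
Egfr: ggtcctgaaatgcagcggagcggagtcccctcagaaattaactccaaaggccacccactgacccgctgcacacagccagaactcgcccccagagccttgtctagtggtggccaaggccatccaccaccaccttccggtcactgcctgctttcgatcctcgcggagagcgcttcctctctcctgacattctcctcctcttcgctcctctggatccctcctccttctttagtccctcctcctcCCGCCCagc

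The Egfr window held 1 GC box, and the Dusp6 and Fgfr2 windows held none. Over the 9 windows 5 held a GC box, against 32.7% of 32851 promoters of the same length, 5 held CCAAT (33.8%), 1 held the ETS core CCGGAA (12%) and 0 held the E-box CACGTG (6.02%), each counted on both strands. Matches of different motifs overlapped at 0 places in these windows. G and C made up 56.4% of the Dusp6, 44.0% of the Fgfr2 and 60.8% of the Egfr window. A match describes letters in this window and does not show that a factor binds.

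Egfr, the EGF receptor, did not pass the test in any of the 3 comparisons. It lies on chromosome 11 (GRCm38, 16752203 to 16918158, plus strand). Untreated libraries of mice 19, 24, 26, 35 and 36 had 711, 782, 764, 818 and 775 CPM, the 4-OHT libraries of the same mice had 597, 820, 701, 808 and 566 CPM, and the deleted libraries of mice 27, 28, 29, 37 and 39 had 740, 688, 617, 495 and 851 CPM. The 3 ranges overlapped throughout, and the coefficient of variation rose from 5.01% untreated to 16.7% in control and 19.7% in deleted cells. Deleted against control cells, the log2 fold change was -0.03 with a 95% interval of -0.37 to 0.32 (adjusted p = 0.910), and 4-OHT against untreated it was -0.16 with an interval of -0.43 to 0.10 (adjusted p = 0.395). Changes of Egfr within these bounds could not be told from the spread between libraries.

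Of the 4 receptors Fgfr1 changed most with Trrap deletion. Fgfr1, a receptor for basic FGF, lies on chromosome 8 (GRCm38, 25513654 to 25575718, plus strand). Its level was 269, 242, 295, 347 and 281 CPM in the untreated libraries, in the order of mice given above. The control libraries had 239, 293, 270, 267 and 232 CPM, and the deleted ones 379, 361, 402, 342 and 410 CPM. All 5 deleted libraries lay above all 5 controls, and 1 untreated library, of mouse 35, reached into the deleted range. Fgfr1 rose by 0.56 on the log2 scale (SE 0.0888, 1.47-fold, 95% interval 1.29 to 1.68) in deleted over control cells, with an adjusted p of 0.00109. An exact two-sided permutation test over the 10 libraries gave p = 0.00794, the smallest it can give. The mean difference was 0.51 within mice below 30 and 0.59 within mice above 30. The value above 30 includes libraries in doubt, and the other mice above 30 were control mouse 35 at 267 CPM and Fl/Fl mouse 37 at 342 CPM. Without Fl/Fl mouse 39 and both libraries of mouse 36 the fitted rise was 0.48 (adjusted p = 0.00842). Against untreated cells Fgfr1 was higher by 0.39 (adjusted p = 0.0136), and without those libraries by 0.35 (adjusted p = 0.0564), which no longer passed. 4-OHT against untreated in Fl/+ cells gave -0.17 (95% interval -0.41 to 0.08, adjusted p = 0.349).

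Fgfr2, a second FGF receptor, followed Fgfr1 in direction with a smaller change. Its annotated locus on chromosome 7 spans 130162451 to 133123350 on the minus strand. Untreated libraries had 53.6, 54.6, 66.0, 55.9 and 52.4 CPM, control libraries 49.1, 69.5, 55.9, 55.2 and 60.3 CPM, and deleted libraries 58.9, 69.8, 71.9, 78.6 and 74.7 CPM. The deleted libraries of mice 28, 29, 37 and 39 stood above every control, and that of mouse 27 lay among them. Fgfr2 rose by 0.30 (SE 0.106, 1.23-fold, adjusted p = 0.0479) in deleted over control cells and by 0.31 (adjusted p = 0.0290) over untreated cells. Both calls were narrow: without Fl/Fl mouse 39 and both libraries of mouse 36 the estimates were 0.28 (adjusted p = 0.144) and 0.27 (adjusted p = 0.107). 4-OHT against untreated gave 0.02, with an interval of -0.22 to 0.25.

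Fgfr3, the FGF receptor also found in astrocytes, was lower after 4-OHT in every mouse. The gene lies on chromosome 5 (33721674 to 33737068, plus strand), where the transcript G630022F23Rik overlaps its start on the opposite strand, and the counting was stranded. From untreated to 4-OHT, mouse 19 went from 426 to 237 CPM, mouse 24 from 531 to 407, mouse 26 from 545 to 366, mouse 35 from 377 to 354 and mouse 36 from 346 to 296. The deleted libraries had 343, 340, 372, 349 and 355 CPM, the tightest group of the receptors with a coefficient of variation of 3.64%. In the unpaired fit the 4-OHT difference of -0.44 missed the threshold (adjusted p = 0.110), whereas with the mouse as a block it was -0.45 and passed (SE 0.115, adjusted p = 0.0237), and so it did without mouse 36 (-0.50, adjusted p = 0.0273). Deleted and control cells differed by 0.10 (95% interval -0.19 to 0.39), which did not pass. The summed level of the 8 astrocyte markers was 3461 to 4573 CPM untreated and 3992 to 5269 CPM after 4-OHT. Of these markers 4 fell and 1 rose (median -0.24), where 6.45% of all genes fell and 7.34% rose. Their part in the Fgfr3 level was not tested. With the mouse as a block 4 fell and 2 rose (all genes 11.9% and 13.8%). Without mouse 36 4 fell and 0 rose in edgeR, both without the block (median -0.44, all genes 4.92% and 5.9%) and with it (median -0.46, all genes 11.1% and 12.9%). In such bulk RNA fewer cells of a type and less RNA per cell cannot be told apart.

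**Figure D2:**
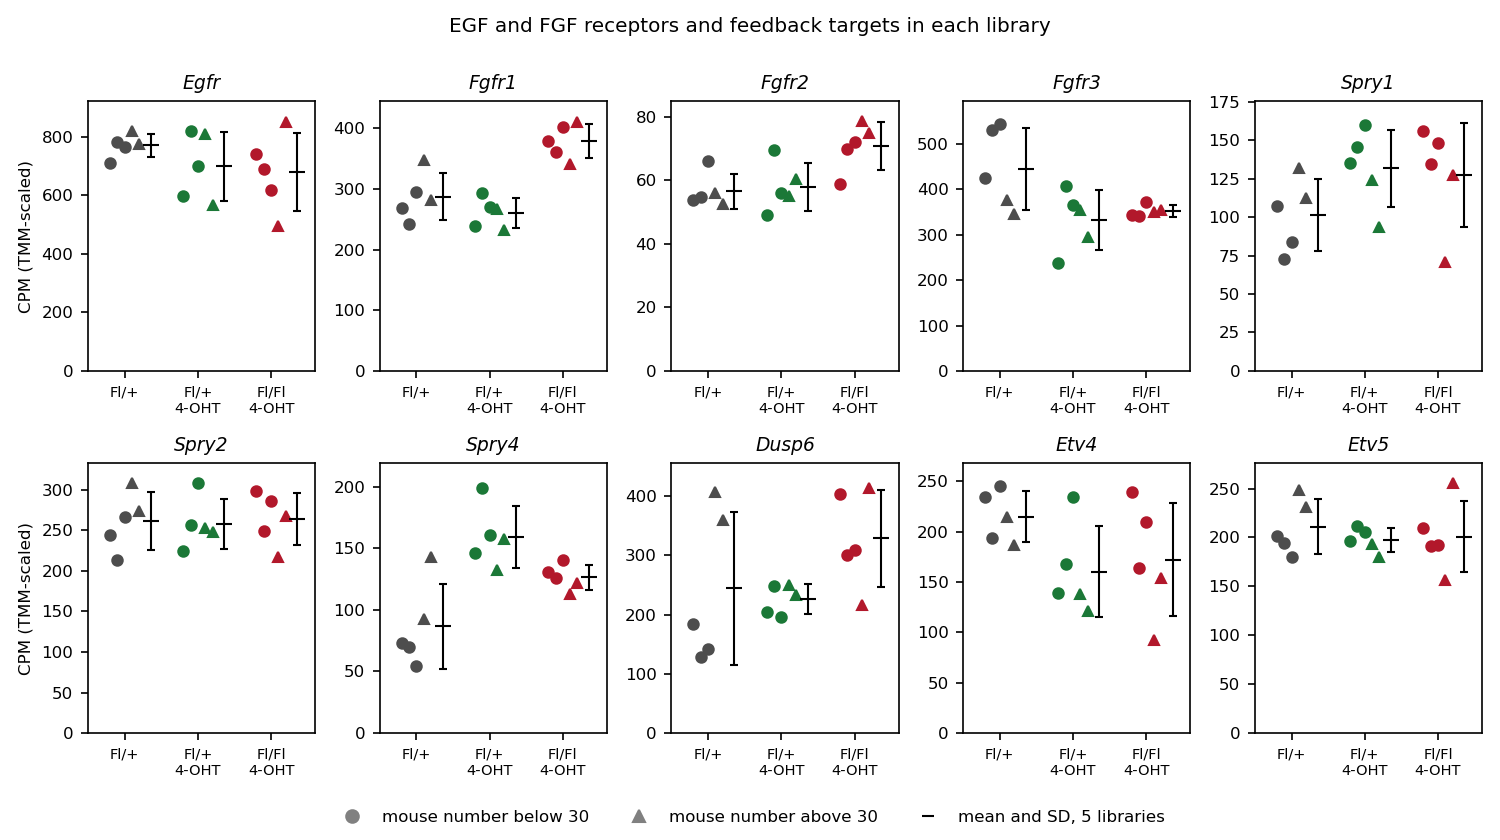
CPM of each gene in each of the 15 libraries from 0, by group, with circles for mice numbered below 30 and triangles above 30, and the mean ± SD of 5 libraries beside each group. The 5 deleted libraries of Fgfr1, at 342 to 410 CPM, lie above the 5 controls at 232 to 293, whereas the Egfr groups overlap.

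The 3 Sprouty genes, which encode inhibitors of receptor tyrosine kinase signalling, did not move as a group. Spry4 was the only one of the 10 genes that passed the test after 4-OHT in the unpaired fit, where 13.8% of 14821 genes did. Spry4 lies on chromosome 18, minus strand. From untreated to 4-OHT it went from 72.9 to 146 CPM in mouse 19, from 69.9 to 199 in mouse 24, from 54.1 to 161 in mouse 26, from 92.7 to 132 in mouse 35 and from 143 to 158 in mouse 36. It was higher with 4-OHT in 5 of 5 mice, by 1.00 to 1.56 on the log2 scale in mice 19, 24 and 26 and by 0.51 and 0.14 in mice 35 and 36, and the untreated library of mouse 36 lay inside the treated range. The fitted rise was 0.86 (SE 0.228, 1.81-fold, adjusted p = 0.0303), and 0.92 (adjusted p = 0.0140) with the mouse as a block. The exact two-sided permutation test gave p = 0.0159 and the exact sign-flip test over the 5 mice p = 0.0625, the smallest that 5 mice allow. Without both libraries of mouse 36 the rise was 1.11 (adjusted p = 0.00840).

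In the deleted libraries Spry4 stood at 131, 126, 141, 113 and 121 CPM, between the untreated mean of 86.6 and the control mean of 159. It was lower in deleted than in control cells, at -0.32 on the log2 scale (SE 0.111, 0.802-fold, adjusted p = 0.0481), with a difference of -0.34 within mice below 30 and -0.30 within mice above 30. The value above 30 includes libraries in doubt, and the other mice above 30 were control mouse 35 at 132 CPM and Fl/Fl mouse 37 at 113 CPM. The call for deletion also stood close to the threshold, at an adjusted p of 0.113 without Fl/Fl mouse 39 and both libraries of mouse 36. Deleted cells were above untreated cells by 0.54 (95% interval 0.07 to 1.00, adjusted p = 0.0784), and by 0.80 (adjusted p = 0.00584) without those libraries.

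Spry1 (chromosome 3, 37639947 to 37644598, plus strand) had 107, 72.9, 83.7, 132 and 112 CPM untreated, 135, 146, 160, 124 and 93.3 CPM after 4-OHT, and 156, 134, 148, 70.7 and 128 CPM in deleted cells. Within the Fl/+ mice its level rose in 19, 24 and 26 and fell in 35 and 36. The fitted values were 0.35 for 4-OHT (adjusted p = 0.218) and -0.03 for deletion (95% interval -0.48 to 0.42, adjusted p = 0.919). Spry2 (chromosome 14, 105891947 to 105896819, minus strand) ranged from 214 to 309 CPM untreated, 225 to 309 CPM in controls and 217 to 298 CPM in deleted cells. The 3 ranges were nearly the same, with -0.04 for 4-OHT (interval -0.30 to 0.21) and 0.05 for deletion (interval -0.19 to 0.28).

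Dusp6, the phosphatase that removes the activating phosphates from ERK, was the only feedback gene of the 10 that rose with Trrap deletion. It lies on chromosome 10 (99263231 to 99267489, plus strand). Control libraries had 204, 248, 195, 251 and 233 CPM and deleted libraries 403, 300, 308, 216 and 414 CPM, so 4 of the 5 deleted libraries lay above every control and that of mouse 37 lay among them. Dusp6 rose by 0.55 (SE 0.162, 1.47-fold, 95% interval 1.15 to 1.88, adjusted p = 0.0232), with 0.64 within mice below 30 and 0.31 within mice above 30. The value above 30 includes libraries in doubt. The other mice above 30 went the opposite way, at 251 CPM in control mouse 35 and 216 CPM in Fl/Fl mouse 37. Without Fl/Fl mouse 39 and both libraries of mouse 36 the fitted rise was 0.45 (adjusted p = 0.0896). The untreated libraries were split: mice 19, 24 and 26 had 185, 129 and 142 CPM, and mice 35 and 36 had 407 and 359 CPM. Their coefficient of variation was 53.0%, against 11.1% in the same mice with 4-OHT. The comparison of deleted with untreated cells, 0.42 with an interval of -0.29 to 1.13 (adjusted p = 0.355), was correspondingly imprecise.

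The ETS factors Etv4 and Etv5, transcription factors of the PEA3 group, did not pass for deletion. Etv4 (chromosome 11, 101769742 to 101785371, minus strand) was lower after 4-OHT in every mouse, from 234 to 139 CPM in mouse 19, 193 to 168 in mouse 24, 245 to 235 in mouse 26, 214 to 138 in mouse 35 and 187 to 121 in mouse 36. The unpaired difference of -0.45 missed the threshold (adjusted p = 0.105), and with the mouse as a block the value was -0.48 (SE 0.117, adjusted p = 0.0194). Without mouse 36 the blocked value was -0.44 and no longer passed (adjusted p = 0.0504). Deleted libraries had 239, 164, 210, 92.5 and 155 CPM, spread over the ranges of both other groups, and the difference from controls was 0.12 with an interval of -0.42 to 0.66. Etv5 (chromosome 16, 22381309 to 22439719, minus strand) ranged from 180 to 248 CPM untreated, 180 to 212 CPM in controls and 157 to 255 CPM in deleted cells. Its fitted values were -0.12 for 4-OHT (interval -0.34 to 0.10) and 0.04 for deletion (interval -0.21 to 0.29).

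**Figure D3:**
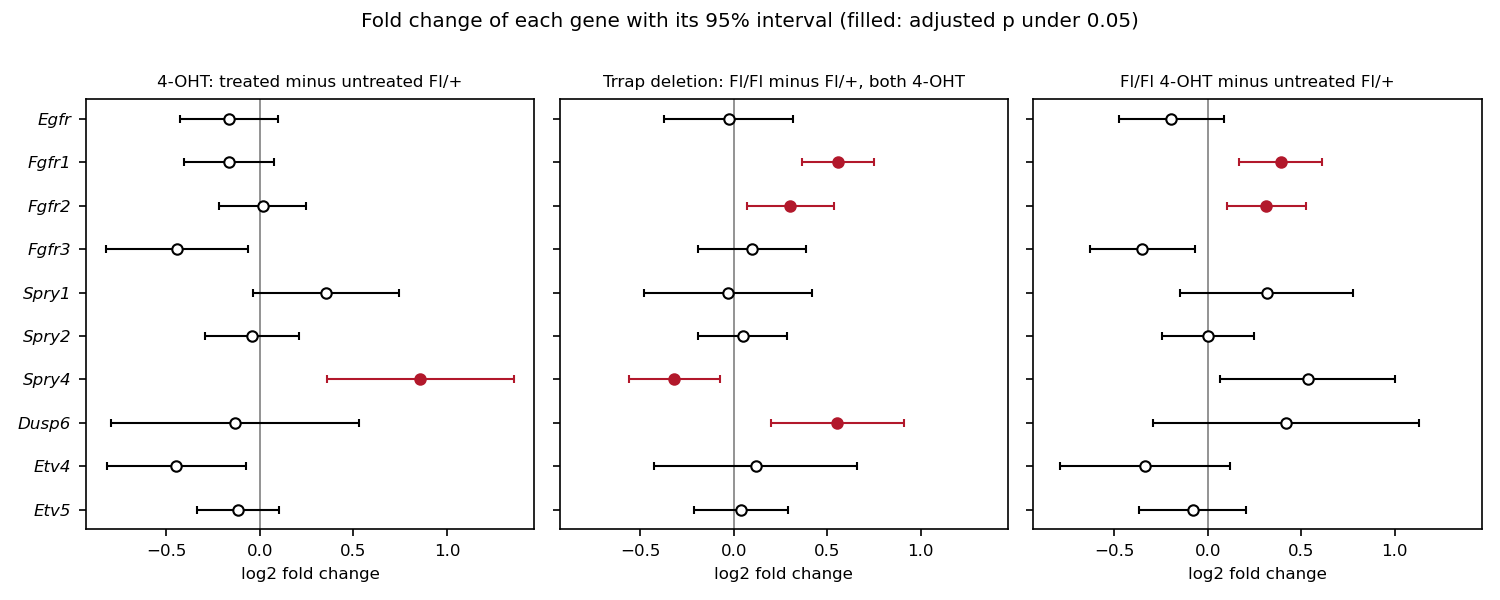
Log2 fold change of each gene with its 95% interval in the 3 comparisons, filled where the adjusted p was under 0.05. Spry4 alone is filled for 4-OHT at 0.86, Fgfr1, Fgfr2, Spry4 and Dusp6 for deletion at 0.56, 0.30, -0.32 and 0.55, and Fgfr1 and Fgfr2 for deleted against untreated cells at 0.39 and 0.31.

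Counted over the 10 genes, 4 passed for Trrap deletion (3 higher and 1 lower) against a background of 31.7% of the 15036 genes tested, 16.8% higher and 15.0% lower. In that comparison 1 of the 10, Fgfr1, had groups that did not overlap, against 22.7% of all genes. The median log2 fold change was 0.07 over the 10 genes and 0.02 over all genes. For 4-OHT 1 of 10 passed and 0 of 10 had groups without overlap, against 11.9% of all genes. With the mouse as a block 3 passed, 1 higher and 2 lower, where the block called 25.7% of all genes, 13.8% higher and 11.9% lower. Without mouse 36 the block called 2 of the 10 and 24% of all genes. Medians in the unpaired fit were -0.13 over the 10 genes and -0.01 over all. Deleted against untreated cells, 2 of 10 passed, both higher, against 30.7% of 15032 genes (15.7% higher and 15.1% lower), and 0 of 10 had groups without overlap, against 22.9%. These shares were near or below the background of each comparison. Fgfr1 was the only one of them to pass for deletion whichever single library was left out. The count of 4 was 1 without control mouse 26 or without Fl/Fl mouse 39, and 2 without control mouse 19 or 36 or without Fl/Fl mouse 27, 28 or 37. Over all genes 3772 to 4734 passed in these fits, in place of 4773. The Spry4 call after 4-OHT was lost without the untreated library of mouse 19, 24 or 26 or the 4-OHT library of mouse 19, 24 or 36, with adjusted p up to 0.0732, and without the 4-OHT library of mouse 26 Etv4 passed as well (-0.61, adjusted p = 0.0113). Against untreated cells the count of 2 was 1 without untreated mouse 19 or 24 or without Fl/Fl mouse 28, 29, 37 or 39, and Fgfr1 passed each time. Over all genes 3700 to 4215 passed in these fits, in place of 4620. The 3 comparisons share libraries.

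Several of the feedback genes differed between the lower and higher mouse numbers in untreated cells. In untreated cells Spry1, Spry2, Spry4, Dusp6 and Etv5 were all higher in mice 35 and 36 than in mice 19, 24 and 26, with no overlap, and Fgfr3 was lower. Such non-overlap was common, at 49.3% of 14821 genes (24.2% higher and 25.1% lower above 30). The direction did not hold with 4-OHT. In controls Spry1, Spry2, Spry4 and Etv5 averaged lower above 30 than below, and Dusp6 higher. In deleted cells Spry1, Spry2, Spry4 and Dusp6 averaged lower above 30, and Etv5 higher. Untreated, Dusp6 averaged 152 CPM in the lower-numbered and 383 CPM in the higher-numbered mice. With 4-OHT it rose in mice 19, 24 and 26, by 0.15, 0.94 and 0.46 on the log2 scale, and fell in mice 35 and 36, with changes of -0.70 and -0.62. Both libraries of mouse 36 are in doubt, and mouse 35 is the only other Fl/+ mouse numbered above 30. The interaction of 4-OHT with mouse number, fitted with the mouse as a block, was -1.18 for Dusp6 (SE 0.231, adjusted p = 0.111), -1.04 for Spry4 (adjusted p = 0.117) and -0.93 for Spry1 (adjusted p = 0.146). Of the 10 genes 0 passed this edgeR test, against 0.0675% of all genes, and 5 had an unadjusted p under 0.05, as did 14.5% of all genes. The interaction of deletion with mouse number, which 0.00665% of all genes passed, ranged from -0.25 to 0.22 over the 10 genes, and 0 of them had an unadjusted p under 0.05, as did 4.34% of all genes.

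**Figure D4:**
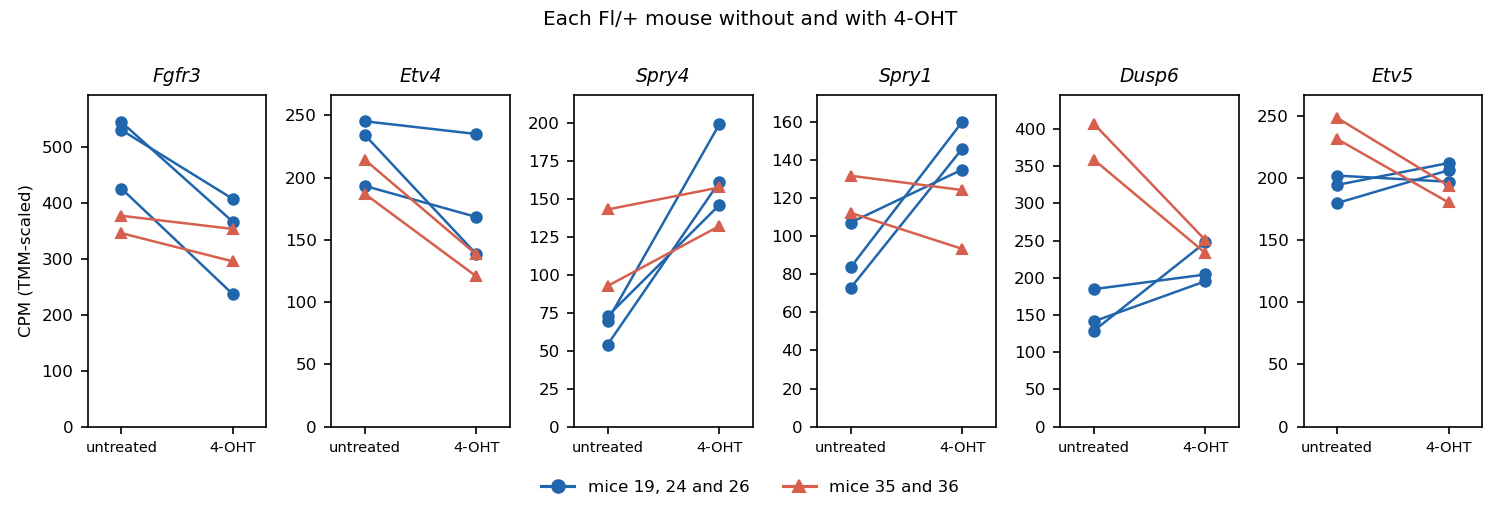
CPM of 6 genes in each Fl/+ mouse without and with 4-OHT, joined by a line, with circles for mice 19, 24 and 26 and triangles for mice 35 and 36. Fgfr3 and Etv4 fall and Spry4 rises in all 5 mice, while Dusp6 and Spry1 rise in the first 3 and fall in the other 2.

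The rest of the pathway was read from a list of 83 genes, of which 61 were tested for deletion and 60 for 4-OHT. After deletion 20 passed, 6 higher and 14 lower, close to the 31.7% of all genes, with a median log2 fold change of -0.02. In the RAS-RAF-MEK-ERK core 7 of 12 genes fell and 1 rose, with a median of -0.30, and 7 of the lower genes lay outside it. Without the libraries in doubt 13 passed, and in the core 5 fell and 0 rose, with a median of -0.28, where 23.2% of all genes passed. Beside this 4 of 10 neural stem cell markers were lower in deleted cells (median -0.32) and 2 of 9 neuron markers were lower and 1 higher (median -0.46), and their part in the core was not tested. Without the libraries in doubt 2 of the stem cell markers were lower, and 1 neuron marker was lower and 1 higher. Nras, a RAS GTPase, fell by 1.08 on the log2 scale (SE 0.0631, adjusted p = 1.43e-05), from 211 to 245 CPM in controls to 103 to 117 CPM in deleted cells. Hras (-0.38), Braf (-0.25) and the scaffolds Ksr1 (-0.52) and Shoc2 (-0.34) fell too, and Map2k2, which encodes MEK2, rose (0.37). Without the libraries in doubt Nras was at -1.05 (adjusted p = 0.000292), and Braf (adjusted p = 0.120) and Map2k2 (adjusted p = 0.116) no longer passed. These were chosen for naming after their values were seen, apart from Nras. Of the other feedback inhibitors 1 of 16 rose, the phosphatase Dusp5, and 4 fell, among them Il17rd, an inhibitor of FGF signalling also called Sef, by 1.41 (adjusted p = 0.000239) from 12.4 to 23.6 CPM in controls to 5.42 to 7.60 CPM in deleted cells, and by 1.28 without the libraries in doubt (adjusted p = 0.00207). Among 9 other ERK output genes 3 rose, Ccnd1, Egr1 and Myc, and Etv1, the third PEA3 factor, fell. Ccnd1 (adjusted p = 0.0637) and Egr1 (adjusted p = 0.173) no longer passed without the libraries in doubt.

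After 4-OHT the genes of the list that passed were mostly feedback inhibitors and output genes. Of the 25 in these groups other than the 10, 7 rose and 0 fell in edgeR, against a background of 7.34% higher and 6.45% lower, with a median of 0.19. DESeq2 called 8 of them higher and 3 lower, and 2984 of 14821 genes in all. With the mouse as a block 9 rose, the same 7 with Ccnd1 and Egr1, and 2 fell, Il17rd (-0.49, adjusted p = 0.0253) and Epha4 (-0.42, adjusted p = 0.0189). In the block without mouse 36 these counts were 8 and 3, and Egr1 no longer passed (0.26, adjusted p = 0.0721). In the core 0 of 12 genes passed in the unpaired edgeR fit and 0 in DESeq2, with 1 at an unadjusted p under 0.05 and a median of 0.10. With the mouse as a block 1 of the 12 passed, Nras at 0.25 (adjusted p = 0.0418), which did not pass without mouse 36 (adjusted p = 0.0542). The mitochondrial share was also lower after 4-OHT, at 1.40% on average against 2.52%, and its part in these changes was not tested. Astrocyte and oligodendrocyte lineage markers, given in other paragraphs, moved with 4-OHT too, and their part in these changes was not tested. Epha2, an ephrin receptor, rose by 2.39 (adjusted p = 0.000231) from 2.81 to 6.01 CPM untreated to 17.7 to 26.2 CPM. Ier3, an immediate early gene, rose by 2.04 (adjusted p = 0.00240), from 8.18 to 22.1 CPM to 40.4 to 101 CPM. Dusp4, a nuclear ERK phosphatase, rose by 1.26 and Spry3, the remaining Sprouty gene, by 1.31, both with groups that did not overlap. The other 3 that rose were Spred2, Spred3 and Phlda1. All 7 passed in the unpaired fit without mouse 36 as well. Among the 10 genes Spry4 rose and passed (0.86). Spry1, Spry2, Dusp6, Etv4 and Etv5, at 0.35, -0.04, -0.13, -0.45 and -0.12, did not pass in the unpaired fit. The block moved Etv4 to -0.48, which passed, and Dusp6 to 0.02, which did not. With the mouse as a block 18 of the 60 genes passed, 15 higher and 3 lower, in place of 10, 9 higher and 1 lower, against the 25.7% of all genes that the block called.

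Ligands and other receptors changed as follows. Hbegf, a ligand of Egfr, rose after 4-OHT by 1.32 (SE 0.224, adjusted p = 0.00383), in 5 of 5 mice, from 40.6 to 78.9 CPM untreated to 102 to 217 CPM. In deleted cells it ranged from 149 to 441 CPM, with a difference of 0.64 from controls that did not pass (adjusted p = 0.130). Of 18 FGF ligands 2 were expressed well enough to be tested in both comparisons, Fgf1 and Fgf2, and neither passed in the unpaired fits. With the mouse as a block Fgf2 rose after 4-OHT by 0.66 (adjusted p = 0.00702), and by 0.70 without mouse 36 (adjusted p = 0.0133). Of the ligands and receptors the block also called 2 further genes higher, the receptor Fgfrl1 (0.29, adjusted p = 0.0267) and the EGF family ligand Areg. Areg had 5 to 30 counts per library untreated and 11 to 68 with 4-OHT, so no fold change is given for it. Erbb3, a neuregulin receptor, had 3 to 14 counts per library untreated, 17 to 64 in controls and 107 to 368 in deleted cells, or 0.107 to 0.488, 0.674 to 2.20 and 3.46 to 14.2 CPM. It passed the count filter for 4-OHT through the treated libraries, and untreated libraries lay at or near 3 counts, so its call there is among the 10 but no fold change is given. After deletion it rose by 2.22 (adjusted p = 0.00382). Erbb4 fell by 0.51 after 4-OHT (adjusted p = 0.0200). Without the libraries in doubt the 4-OHT values were 1.21 for Hbegf (adjusted p = 0.0205) and -0.50 for Erbb4, which no longer passed (adjusted p = 0.0584), and Erbb3 was at 2.42 for deletion (adjusted p = 0.0115). In the block without mouse 36 Erbb4 passed (adjusted p = 0.0251). Beside these changes 6 of 10 oligodendrocyte lineage markers rose after 4-OHT with a median of 1.38, where 7.34% of all genes rose. Without mouse 36 it was 5 of 10, where 5.9% of all genes rose. DESeq2 and the mouse block each called 6 higher and 1 lower. Over all genes DESeq2 called 2984 of 14821, and the block called 13.8% higher and 11.9% lower. After deletion 0 of 10 passed in edgeR, where 31.7% of all genes did, with a median of 0.14. An unadjusted p under 0.05 was found for 2 of the 10 and for 6462 of 15036 genes. DESeq2 called 1 higher of the 8 to which it gave an adjusted p, and 5474 of 15036 genes in all. Sox10, among those that rose, went from 24.8 to 97.2 CPM on average after 4-OHT. The summed level of the 10 markers was 3454 to 4492 CPM untreated, 3393 to 4679 CPM in controls and 3603 to 5411 CPM in deleted cells. The largest part of this sum was Olig1, which averaged 2414 CPM untreated and 1903 CPM in controls, so the sum says little of the scarcer markers. The part of these markers in the levels of Erbb3 and of the 10 genes was not tested.

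**Figure D5:**
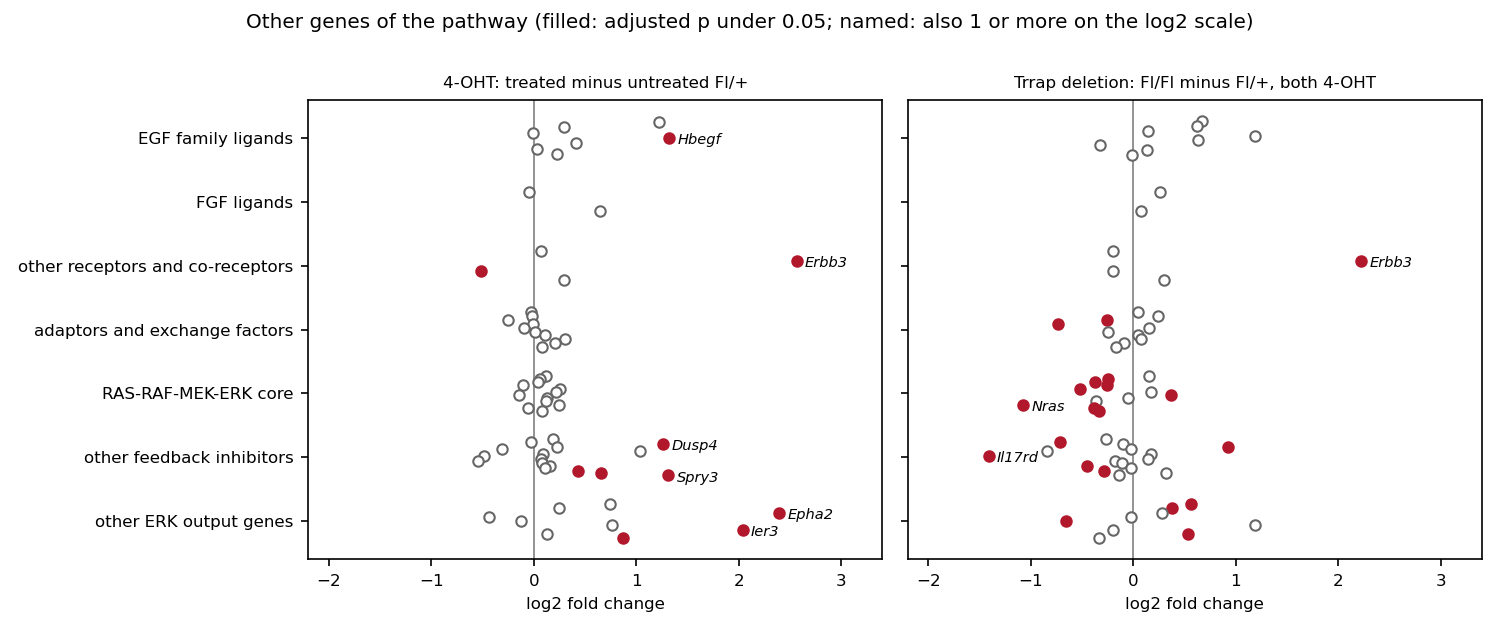
Log2 fold change of each tested pathway gene other than the 10, in rows by role, for 4-OHT and for Trrap deletion in the unpaired fits, filled where the adjusted p was under 0.05. The filled points of the core row lie to the left of 0 for deletion apart from 1, with Nras at -1.08, and the core row has none for 4-OHT, where the filled points of the last 2 rows all lie to the right, up to Epha2 at 2.39.

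The genes whose level was most like that of Egfr over the 15 libraries, among 13330 genes, were Shisa2 (Pearson r = 0.864), Cabin1 (0.855), Tnfaip6 (0.845), Fgd1 (0.838) and Mchr1 (0.833). For Spry2 they were Dzip1l (0.881), Nr5a2 (0.827), Snrk (0.812), Ank2 (0.790) and Kansl3 (0.778). These correlations are descriptions, since the points share groups and the Fl/+ libraries share mice.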

How the data were processed

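The authors sequenced polyadenylated RNA with a stranded kit (TruSeq Stranded mRNA, 51-cycle single reads) and, per the labels and the study's methods, aligned it with STAR 2.5.4b to GRCm38 and counted unique reads per Ensembl gene with featureCounts 1.5.0. The deposited table holds these counts without normalization. Ensembl identifiers were matched to symbols through the GENCODE annotation of the same build, for 53706 of 53801 genes. The 10 genes, the pathway list and the marker lists were chosen with earlier results of these data known.

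Each comparison was fitted on its own 10 libraries with edgeR 4.0.16 (filterByExpr with a minimum count of 10, TMM scaling, quasi-likelihood test, Benjamini-Hochberg adjustment over all genes tested, threshold 0.05). SE is the log2 fold change divided by the square root of its F value, and intervals are 95%. Single genes were also tested on log2(CPM + 0.5) by exact permutation and, per mouse, by exact sign flips. DESeq2 1.42.0 was an alternative, and the fits were tested on simulated counts. Genes of the pathway list were named when their adjusted p was under 0.05 and their log2 fold change at least 1 in size, at most 12 per comparison, and for the receptor and the feedback gene highest per kb the 5 most correlated genes were named among those averaging 1 CPM or more; other names were chosen after their values were seen. Nothing in the labels says whether the cultures of a mouse were prepared separately, so p-values measure the spread between these libraries. Alternatives were other scaling, filters, a shared dispersion, labelled sex, mouse number and libraries left out. The control and untreated libraries come from the same 5 mice: their deviations from the group means correlated at 0.204 to 0.606 within a mouse and at -0.514 to 0.339 between mice over 14821 genes. The mouse as a block is therefore given beside the 4-OHT calls it changes. The labels and the methods differ on the 4-OHT concentration, so none is stated. Values of some single genes of the pathway list are not reported here.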

Additional observations from a re-analysis of the deposited data

Results flagged for a closer look

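Dusp6 and Spry1 were flagged because every lower-numbered Fl/+ mouse moved one way with 4-OHT and both higher-numbered mice moved the other. Both libraries of mouse 36 are in doubt, and without them mouse 35 is the only Fl/+ mouse numbered above 30. For Dusp6 the interaction of 4-OHT with mouse number was -1.18 (edgeR with the mouse as a block, adjusted p = 0.111), and for Spry1 it was -0.93 (adjusted p = 0.146), so neither passed over all genes. Dusp6 in untreated cells spanned 129 to 407 CPM.

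Fgfr2 in the untreated library of mouse 26, at 66.0 CPM, stood apart from the other 4 untreated libraries, whose highest value was 55.9 CPM, by more than Dixon's critical value of 0.71 of the range. It was the 1 group of the 30 examined to do so, and chance flags about 1 in 20.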

How the results depend on the processing

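Of the 10 genes, the number passing for Trrap deletion (4) was 2 without a filter on low counts, 2 with a dispersion shared by all 15 libraries, 2 with labelled sex as a covariate and Fl/Fl mouse 39 left out, and 1 (pathway genes 13 in place of 20) without Fl/Fl mouse 39 and both libraries of mouse 36, and 1 to 3 with single libraries left out. Over all genes 4773 of 15036 passed for deletion in the main fit. In the same order the alternatives called 4052 of 28687, 4116 of 15036, 4537 of 15254, 3513 of 15142 and, with single libraries left out, 3772 to 4734 genes. For 4-OHT (1) the number passing of the 10 genes was 2 with the shared dispersion or mouse number as a covariate, 3 with labelled sex, 3 (pathway 18 in place of 10) with the mouse as a replicate block, 2 (pathway 18) with that block and mouse 36 left out, and 0 to 2 with single libraries left out. For deleted against untreated cells (2) it was 4 with labelled sex or mouse number and 1 to 3 with single libraries left out. The block changed no other call of the 10 genes than those of Fgfr3 and Etv4, and without mouse 36 that of Fgfr3 alone. Over all genes 2044 of 14821 passed for 4-OHT, 2654 with the shared dispersion, 3170 with mouse number as a covariate and 2932 with labelled sex. It was 3809 with the block and 3578 of 14918 with the block and mouse 36 left out. Single libraries left out gave 1271 (4-OHT library of mouse 19) to 2522, with 1311 without the 4-OHT library of mouse 35. For deleted against untreated cells 4620 of 15032 passed, 4517 with labelled sex, 5520 with mouse number and 3700 to 4735 with single libraries left out. Leaving out both libraries of mouse 36, alone or with Fl/Fl mouse 39 or the block, and Fl/Fl mouse 39 with labelled sex as a covariate were chosen after seeing the data. Depth did not limit the 10 genes, whose precision was set by the spread between libraries.

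Changes of sign concerned values that did not pass. For deletion, library size alone gave 0.0100 for Egfr and 0.0084 for Spry1, and Etv5 was -0.107 without Fl/Fl mouse 39 and both libraries of mouse 36 and -0.073 with labelled sex and Fl/Fl mouse 39 left out. Single libraries left out gave -0.131 to 0.053 for Egfr, -0.018 to 0.178 for Fgfr3, -0.154 to 0.104 for Spry1, -0.016 to 0.110 for Spry2, -0.030 to 0.285 for Etv4 and -0.070 to 0.102 for Etv5. For 4-OHT, library size alone gave 0.013 for Spry2, Dusp6 was 0.018 with mouse number, 0.020 with the replicate block 0.024 without mouse 36 and 0.185 with the block and mouse 36 left out, and Fgfr2 was -0.030 without mouse 36 and -0.039 with the block as well. Single libraries left out gave -0.051 to 0.085 for Fgfr2, -0.106 to 0.025 for Spry2 and -0.294 to 0.135 for Dusp6. For deleted against untreated cells, Spry2 was -0.0090 by DESeq2, -0.0091 with its size factors, -0.0075 with the shared dispersion, -0.045 with labelled sex and Fl/Fl mouse 39 left out and -0.063 to 0.065 with single libraries left out, and Etv5 was 0.012 with library size alone and -0.181 to -0.0062 with single libraries left out. The cause of these changes was not tested. Of 48 results under all alternatives, 839 values kept direction and side of the threshold, 47 lost the call, 20 gained one, 38 changed sign and 34 were counts that moved by over 1.5 times.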
